A study of Mus musculus with 3 samples.

Results

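The broad reproducible MEIS2 peaks were 2177 intervals of the mouse genome over which the MEIS2 CUT&Tag signal spread for 1000 bp or more. They were selected on measured values: each was a peak of MEIS2 replicate 1 on chromosomes 1 to 19, was at least 1000 bp long, shared at least 1 bp with a peak of MEIS2 replicate 2 and shared none with a peak of the library made without antibody. They made up 4.87% of the 44673 replicate 1 peaks that met the same overlap conditions at any length, and the other 42496 served as the comparison and are called shorter peaks. CUT&Tag uses an antibody to bring the Tn5 transposase to a chromatin protein, so that the DNA close to it is cut and tagged for sequencing. Libraries were made from wild-type CD1 embryos on embryonic day 14.5, each from 100000 cells of the lateral ganglionic eminence (LGE): 2 libraries with a mouse polyclonal antibody against MEIS2, and 1 library whose antibody is labelled as none. This single control cannot show what the MEIS2 antibody might bind besides MEIS2, and no sample lacks MEIS2.

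MEIS2 belongs to the TALE homeodomain proteins and binds DNA alone or together with PBX proteins. In the LGE, the embryonic zone that gives rise to striatal projection neurons, it is made in progenitors and in young neurons. Most mammalian genes that are active in many cell types start within a CpG island, a stretch rich in the dinucleotide CG that is usually unmethylated and open, and the open stretch can be far wider than the site of any single factor.

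The promoters of 6 genes that carried such a peak at their start show the sequence these peaks commonly lay on. Each runs 5′ to 3′ on the gene's strand from 250 bases before to 50 bases after an annotated start (RefSeq, GRCm38.p6, equivalent to mm10), with every CG dinucleotide in capitals. Adcy5 and Hes5 stand for striatal and progenitor genes, Ikzf1 for LGE regulators, and Klf13 and Ptma for the longest peaks at gene starts. Numb stands for a start with few CG among those under broad peaks.
Adcy5 (chr16:35154614-35154913, plus strand): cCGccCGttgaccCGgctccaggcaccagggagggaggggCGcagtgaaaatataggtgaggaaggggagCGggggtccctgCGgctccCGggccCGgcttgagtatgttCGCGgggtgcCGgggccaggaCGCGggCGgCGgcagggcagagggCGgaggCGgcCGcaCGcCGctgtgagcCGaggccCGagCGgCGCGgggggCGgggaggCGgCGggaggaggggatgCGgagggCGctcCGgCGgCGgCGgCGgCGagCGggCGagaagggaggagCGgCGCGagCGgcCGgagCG
Hes5 (chr4:154960673-154960972, plus strand): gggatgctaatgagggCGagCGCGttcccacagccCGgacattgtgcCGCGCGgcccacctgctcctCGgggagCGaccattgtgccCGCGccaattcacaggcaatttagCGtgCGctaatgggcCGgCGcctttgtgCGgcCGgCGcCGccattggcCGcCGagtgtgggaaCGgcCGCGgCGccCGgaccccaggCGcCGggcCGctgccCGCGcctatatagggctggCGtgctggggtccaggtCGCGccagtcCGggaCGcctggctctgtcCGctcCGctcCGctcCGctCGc
Ikzf1 (chr11:11685675-11685974, plus strand): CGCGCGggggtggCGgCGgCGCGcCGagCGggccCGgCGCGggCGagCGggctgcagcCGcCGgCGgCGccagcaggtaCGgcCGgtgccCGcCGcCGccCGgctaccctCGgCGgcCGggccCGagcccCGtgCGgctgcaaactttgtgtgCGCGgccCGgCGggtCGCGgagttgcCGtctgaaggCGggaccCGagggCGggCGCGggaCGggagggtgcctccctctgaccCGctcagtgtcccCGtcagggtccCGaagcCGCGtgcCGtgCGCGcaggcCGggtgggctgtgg
Klf13 (chr7:63938866-63939165, minus strand): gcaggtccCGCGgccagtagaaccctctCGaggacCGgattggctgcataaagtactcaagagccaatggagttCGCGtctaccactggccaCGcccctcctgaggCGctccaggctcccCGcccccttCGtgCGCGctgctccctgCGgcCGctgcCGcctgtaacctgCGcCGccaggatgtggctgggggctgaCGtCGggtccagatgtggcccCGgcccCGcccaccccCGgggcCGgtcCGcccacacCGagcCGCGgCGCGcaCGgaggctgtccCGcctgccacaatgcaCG
Ptma (chr1:86526307-86526606, plus strand): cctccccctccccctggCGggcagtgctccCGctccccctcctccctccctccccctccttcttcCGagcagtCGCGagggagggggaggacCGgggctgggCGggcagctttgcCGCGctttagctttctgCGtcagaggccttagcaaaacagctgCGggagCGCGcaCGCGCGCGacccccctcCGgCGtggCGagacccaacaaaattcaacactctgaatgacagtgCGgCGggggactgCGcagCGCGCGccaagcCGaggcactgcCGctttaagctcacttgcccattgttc
Numb (chr12:83921885-83922184, minus strand): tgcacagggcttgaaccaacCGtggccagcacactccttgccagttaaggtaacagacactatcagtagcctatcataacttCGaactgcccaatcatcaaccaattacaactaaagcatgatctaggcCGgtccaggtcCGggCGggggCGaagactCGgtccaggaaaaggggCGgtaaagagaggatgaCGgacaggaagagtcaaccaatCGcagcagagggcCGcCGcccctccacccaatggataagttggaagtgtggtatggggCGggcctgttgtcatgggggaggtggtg
These 6 promoters held 44 CG dinucleotides at Adcy5, 41 at Hes5, 52 at Ikzf1, 32 at Klf13, 28 at Ptma and 13 at Numb. The median was 14 over all protein-coding promoters and 32 over those under a broad peak.

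The caller used 7618406 tags in MEIS2 replicate 1, 6559629 in MEIS2 replicate 2 and 6337375 in the no-antibody library, after reads at repeated positions had been dropped. On chromosomes 1 to 19 these gave 73347 and 76565 MEIS2 peaks and 8670 no-antibody peaks. Peaks of 1000 bp or more were 2798 of the replicate 1 peaks (3.81%), 1742 of the replicate 2 peaks (2.28%) and 47 of the no-antibody peaks (0.542%). Only 5 of the 2798 wide replicate 1 peaks met no replicate 2 peak, whereas 616 (22.0%) met a no-antibody peak and were left out by the rule. Of the 70549 replicate 1 peaks under 1000 bp, 65.0% met a replicate 2 peak and 5.08% met a no-antibody peak. The control filter thus removed a larger share of the wide peaks. Those 616 wide peaks lay elsewhere than the retained ones: 5 (0.812%) were at the end of a protein-coding gene, and 385 (62.5%) lay between genes. The shares by place given below hold after this filter and would be lower at gene ends without it. Labels do not say whether the 2 MEIS2 libraries came from separate litters, so the spread between them may be technical. Intervals given for shares are 95% Wilson intervals, and the limit given with a count of 0 is 3 counts of the total; both allow for counting error alone. No test was run over peaks or genes, which are not replicates.

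Broad peaks lay mostly at the ends of protein-coding genes, and there almost always at the end where transcription starts. A peak was counted at a gene end when its summit, the position of highest signal, lay at most 1 kb away, and this held at protein-coding genes for 1268 of 2177 broad peaks (58.2%, interval 56.2 to 60.3), against 22.4% (22.0 to 22.8) of shorter peaks. Another 97 broad peaks (4.46%) were at the end of a gene of another kind only, mainly of long noncoding RNA genes (72), against 5.31% of shorter peaks. Inside genes but over 1 kb from every end lay 554 broad peaks (25.4%), against 36.7% of shorter peaks. Between genes and over 1 kb from every end lay 258 (11.9%), against 35.5% of shorter peaks. Of the 990 broad peaks at an end of a protein-coding gene with known strand, 963 (97.3%) were at the start end, against 90.4% of shorter peaks. The proximity of a summit does not use the length of the interval, whereas a longer interval covers a gene start more often by its length alone: 1137 of 2102 broad peaks (54.1%) covered an annotated start, against 15.8% of shorter peaks.

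The share at gene ends climbed with length well below the 1000 bp minimum and then levelled off. It was 8.01% for reproducible peaks of 172 to 299 bp, 19.03% at 300 to 499 bp, 38.0% at 500 to 749 bp, 55.5% at 750 to 899 bp and 57.0% at 900 to 999 bp. Within the broad peaks it was 58.0% at 1000 to 1099 bp, 62.3% at 1100 to 1199 bp, 58.3% at 1200 to 1499 bp and 52.8% at 1500 to 1999 bp. The broad peaks thus continued the pattern of the peaks just under the minimum, with overlapping intervals on either side of 1000 bp. Among the 28 peaks of 2000 bp or more, only 8 (28.6%, interval 15.3 to 47.1) were at a protein-coding gene end. The 5 peaks just inside the minimum, all of 1000 bp, included those at Lrp2, a receptor of the low-density lipoprotein family, Ube2q1, a ubiquitin-conjugating enzyme, and Caskin1. The 5 just outside, all of 999 bp, included those at Erbin and the pair at Slc25a37 and Gm16867 on chromosome 14, whose replicate 2 peaks were of one length, 1056 bp, and whose placement is uncertain if the loci are near-identical copies.

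**Figure D1:**
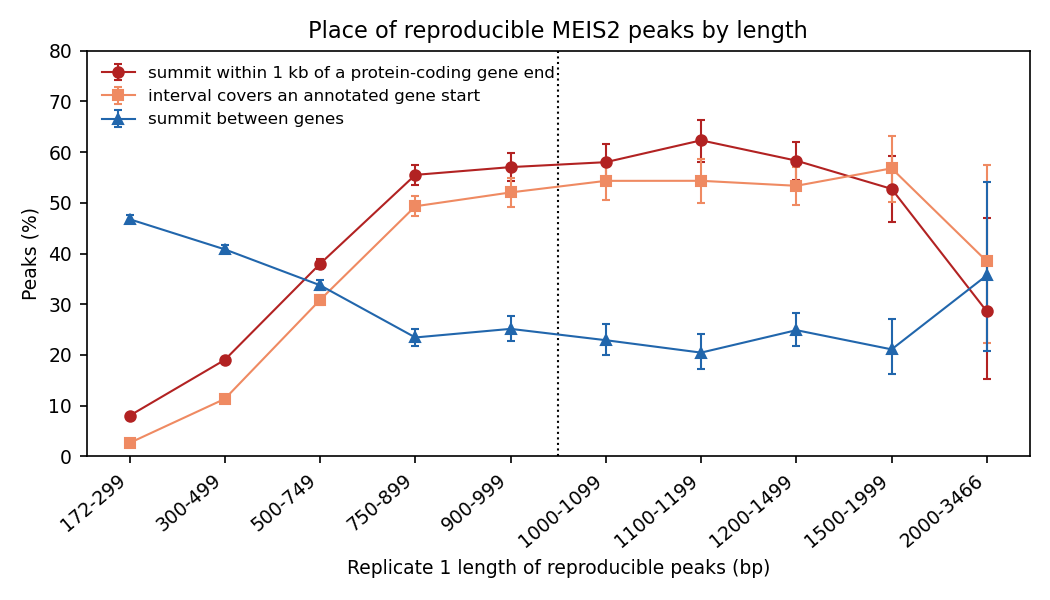
Share of reproducible MEIS2 peaks (vertical axis, percent) by replicate 1 length class (horizontal axis, bp), with 95% Wilson intervals; the dotted line marks the 1000 bp minimum. Peaks with their summit at the end of a protein-coding gene made up 8.01% of the shortest class and 62.3% of the class of 1100 to 1199 bp, and the share between genes was 46.8% and 20.5% in those classes.

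At gene starts the broad peaks reached further into the gene than upstream of it. Those covering a start extended a median of 765 bp downstream and 419 bp upstream, and 72.0% of the 1137 reached further downstream. Shorter peaks over starts extended a median of 390 bp downstream and 183 bp upstream, and 77.2% of 6512 reached further downstream. The summit lay a median of 95 bp inside the gene in broad peaks and 73 bp inside it in shorter peaks, so the medians were similar. Summits of broad peaks were more widely spread, with 10th and 90th percentiles of -296 and 592 bp, against -106 and 287 bp. The length of the flanks differed by construction. Starts on both strands were covered by 202 broad peaks (9.61%), against 1.85% of shorter peaks. A longer interval covers a further start more often by its length alone, and more of the broad peaks covered any start. Among peaks that covered a start, starts on both strands were held by 202 of 1137 broad and 760 of 6512 shorter peaks, a smaller contrast. Such shared starts included Hspd1 and Hspe1, the mitochondrial chaperonin and its co-chaperonin, which share the peak chr1:55087411-55088681, and the histone genes H3c15 and H2ac19 at chr3:96238537-96240494. The peak chr13:100650707-100651771 held an end of 3 protein-coding genes: Rad17, a DNA damage checkpoint factor, Taf9, a subunit of the general factor TFIID, and Ak6, an adenylate kinase.

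**Figure D2:**
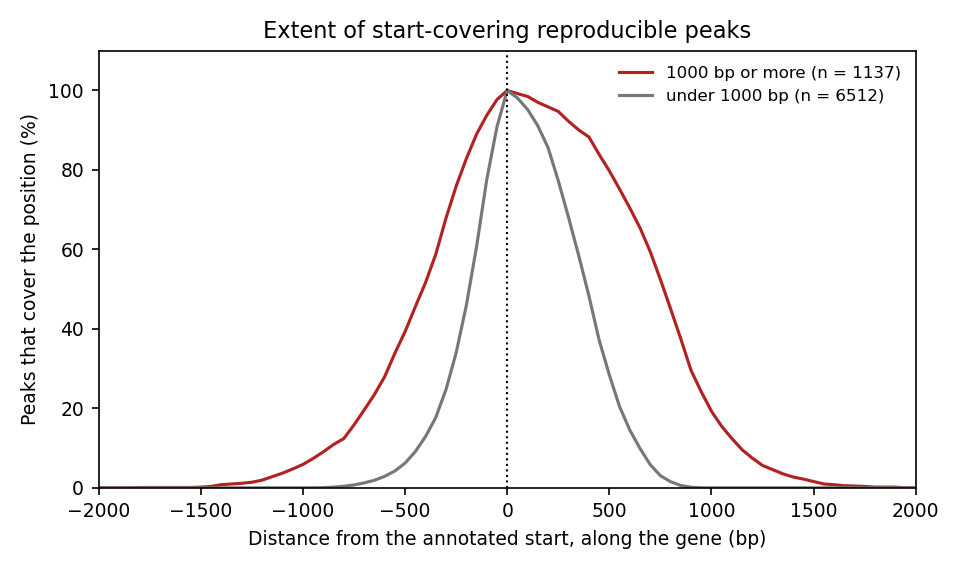
Percent of start-covering reproducible peaks that cover each position (vertical axis) by distance from the annotated start along the gene (horizontal axis, bp), for peaks of 1000 bp or more (n = 1137) and under 1000 bp (n = 6512). Both curves lean downstream, with median extents of 765 and 419 bp on the downstream and upstream sides of broad peaks and 390 and 183 bp for shorter peaks.

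Length chose these peaks in replicate 1 only, so their lengths in replicate 2 are given as a description. The longest overlapping replicate 2 peak had a median length of 969 bp, against a median of 1163 bp in replicate 1, where the minimum was applied. It reached 1000 bp at 969 broad peaks (44.5%, interval 42.4 to 46.6). At 466 broad peaks (21.4%) replicate 2 had several separate peaks under the replicate 1 interval. Across the 2177 peaks, Spearman's rho between the libraries was 0.354 for length, 0.724 for fold enrichment and 0.753 for pileup, the number of tags stacked at the summit, as descriptions of peaks that share 2 libraries. The rule cuts the range of length at 1000 bp, and in shorter peaks the values were 0.686, 0.720 and 0.776. Ptma, which encodes the abundant acidic nuclear protein prothymosin alpha, is an example of several peaks under one interval: its replicate 1 peak chr1:86526031-86528469 of 2439 bp met 4 replicate 2 peaks, the longest of 454 bp.

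The broad peaks comprised members of moderate signal at gene ends and members of high signal that lay mostly between genes. Pileup had a median of 23 in replicate 1 and 16 in replicate 2 at protein-coding gene ends, and of 54 and 47 in the 258 peaks between genes and away from ends. A replicate 1 pileup of 50 or more was found in 9 of 1268 peaks at protein-coding gene ends (0.710%), in 80 of 554 inside genes (14.4%) and in 142 of 258 between genes (55.0%). Replicate 2 gave the same order, with 3 (0.237%), 66 (11.9%) and 122 (47.3%) at 50 or more. High pileup away from gene ends was not particular to broad peaks. Among peaks with a replicate 1 pileup of 50 or more, 3.85% of broad and 2.01% of shorter ones were at a protein-coding gene end. The peaks between genes were also the ones whose breadth repeated most often: 70.2% had a replicate 2 peak of 1000 bp or more, against 39.0% at protein-coding gene ends. They lay nearer to no-antibody peaks, with a median distance of 73.9 kb, against 185 kb at protein-coding gene ends, and 16.3% of them had one within 10 kb, against 2.29%. For shorter peaks at all places the median was 130 kb, and 9.49% had one within 10 kb. The median pileup of the 616 wide peaks left out for meeting the control was 91, and the part of such signal in the 258 was not tested.

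**Figure D3:**
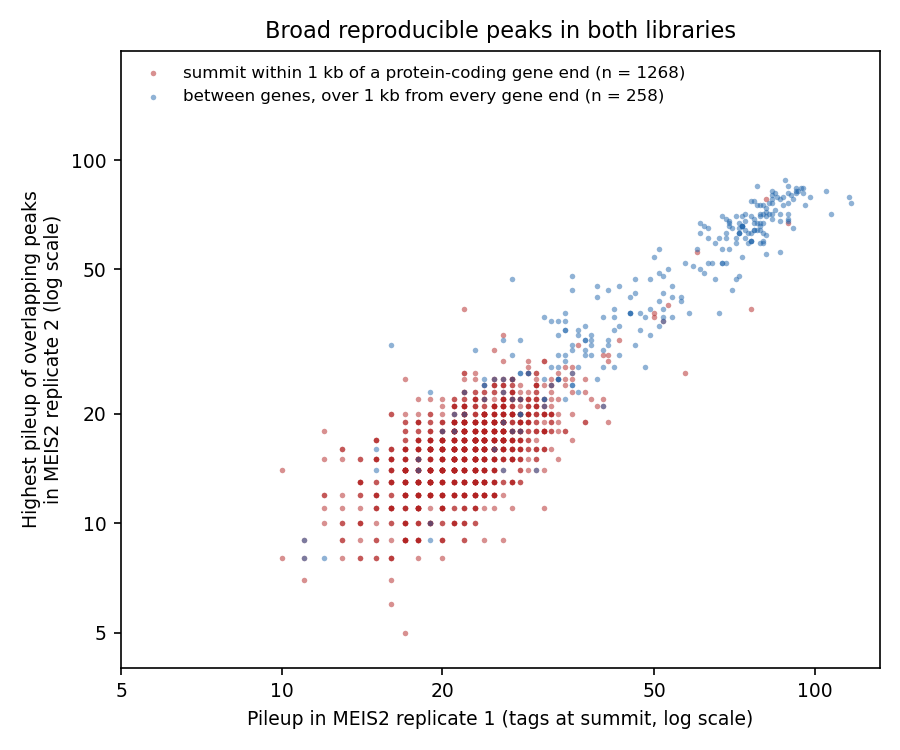
Pileup of each broad peak in MEIS2 replicate 1 (horizontal axis, tags, log scale) and the highest pileup of the replicate 2 peaks it meets (vertical axis, tags, log scale). Peaks at protein-coding gene ends (n = 1268) cluster around medians of 23 and 16 tags, and those between genes and away from ends (n = 258) extend higher, around medians of 54 and 47 tags.

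The longest and strongest broad peaks mostly lay away from gene ends. The longest, chr3:158736007-158739472, spanned 3466 bp with a replicate 2 peak of 2580 bp, and lay 175 kb from the nearest protein-coding gene end, that of Lrrc7. The next were chr5:68219135-68222133, of 2999 bp and 53.7 kb from Grxcr1, and chr5:17244210-17247183, of 2974 bp and 129 kb from Speer4f2, a member of a duplicated gene family. Their fold enrichments were low for their pileups: 4.11 and 4.30 in replicates 1 and 2 at the first, with pileups of 75 and 63. The 12 peaks of highest fold enrichment, ranked by the lower of the replicates, all had their summit over 1 kb from every gene end, led by chr9:33907352-33908388 with 17.4 in replicate 1 and 15.6 in replicate 2. Fold enrichment here is the caller's ratio to the local expectation in the same library. No gene lay within 10 kb of 189 broad peaks (8.68%), against 24.3% of shorter peaks.

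The 8 longest broad peaks at protein-coding gene ends were at Klf13, Ptma, Nsd1, Dyrk1a, Gm20783, Phf13, Sp3 and Vstm2b. Klf13, a zinc finger factor of the Sp/KLF family, carried chr7:63937269-63939844, of 2576 bp in replicate 1 and 2413 bp in replicate 2, with pileups of 27 and 23. Nsd1, a histone H3 lysine methyltransferase, carried chr13:55210190-55212492, of 2303 bp in replicate 1, while the longest of its 3 replicate 2 peaks had 1106 bp. Dyrk1a, a protein kinase needed for normal brain growth, carried chr16:94568969-94571104 (2136 bp and 1653 bp), Phf13, a chromatin reader, chr4:151994853-151996941 (2089 bp and 1246 bp), and Sp3, a GC-box binding factor, chr2:72978885-72980966 (2082 bp and 1344 bp). The peaks at Gm20783 (2095 bp and 927 bp) and Vstm2b (2031 bp and 577 bp) were of similar length in replicate 1 and shorter in replicate 2. The gene-end peaks of highest fold enrichment, chosen after their values were seen, included B3galt6, an enzyme of proteoglycan synthesis, with 11.7 and 12.2 in replicates 1 and 2, and Apaf1, the scaffold of the apoptosome, with 10.9 and 12.5. B3galt6 also had pileups of 60 and 56, well above the medians at gene ends. Fam205a3, from a family of similar copies on chromosome 4 where reads may be misplaced, had pileups of 52 and 36.

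Over all genes, 1438 of 20661 protein-coding genes of chromosomes 1 to 19 had a broad peak at an end (6.96%), and 11110 had any reproducible peak there (53.8%). Replicate 2 alone, with the same length minimum and no overlap with no-antibody peaks, gave 660 genes (3.19%), so counts below are given on both bases. Each gene list is read against these shares: 6.96% by the rule, 3.19% from replicate 2 alone and 53.8% for any reproducible peak. Genes with a broad peak were longer, with a median of 37.5 kb, against 22.3 kb for genes with shorter peaks only and 11.6 kb for genes with none. More than 1 annotated start was held by 21.3%, 17.9% and 13.7% of the 3 sets. Hspg2, which encodes the matrix proteoglycan perlecan, and Podxl2, which encodes a sialomucin, were the genes with 2 broad peaks at their ends. Within gene bodies and 1 kb around them, the highest number was 3, at Gpc6, a glypican, and Itpr2, a calcium channel of the endoplasmic reticulum.

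**Figure D4:**
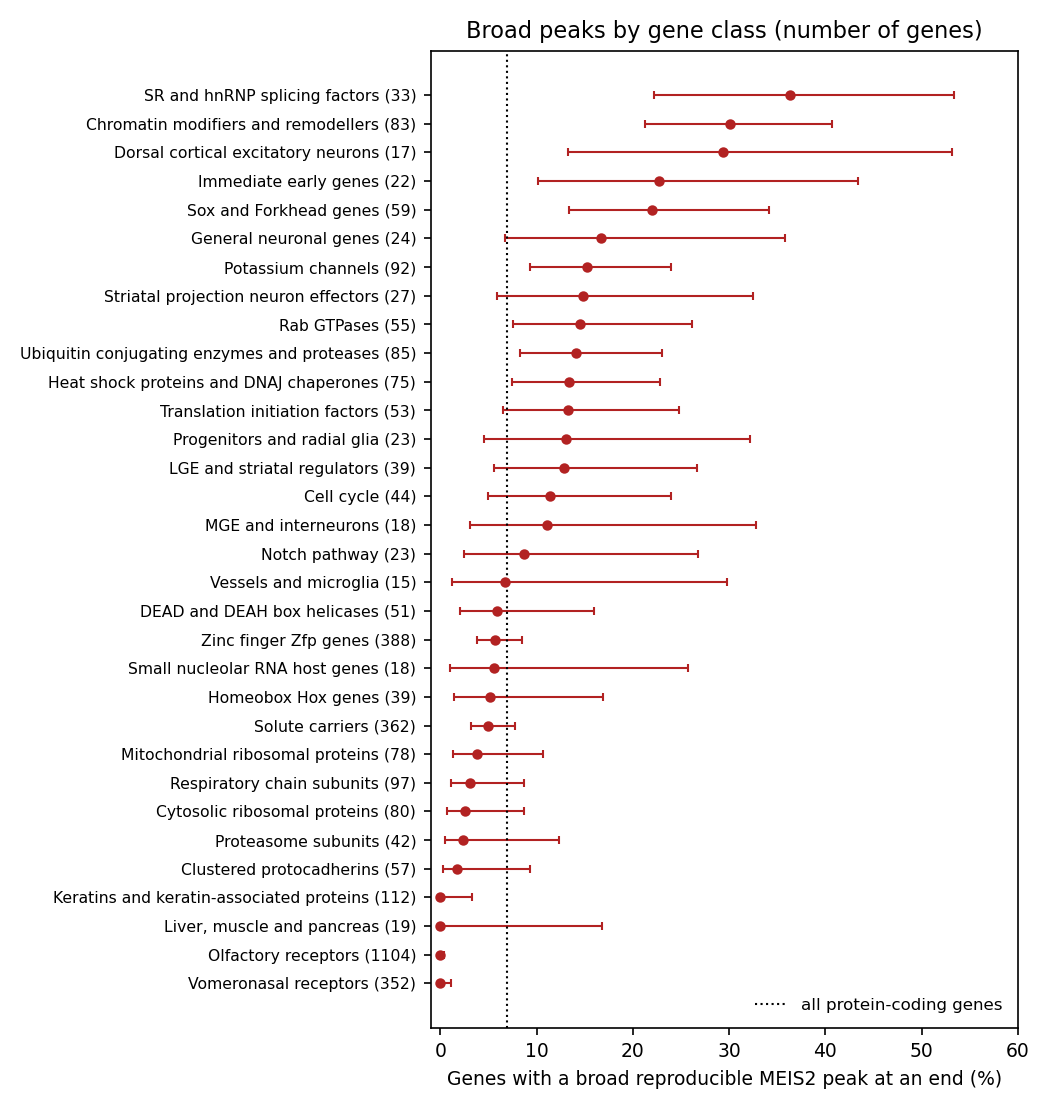
Percent of the genes of each list (number of genes in brackets) that had a broad reproducible MEIS2 peak at an end (horizontal axis), with 95% Wilson intervals; the dotted line marks all protein-coding genes (6.96%). Splicing factors (36.4%) and chromatin regulators (30.1%) stand at the top, and olfactory and vomeronasal receptors at 0.

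Splicing factors and chromatin regulators had the highest shares of the 32 lists, with intervals that overlap those of the next lists. Of 33 genes for SR proteins and hnRNPs, which bind nascent RNA and direct splicing, 12 had a broad peak (36.4%, interval 22.2 to 53.4), 10 of 33 did in replicate 2 alone, and 24 had any reproducible peak. Hnrnpdl carried chr5:100038548-100040186, of 1639 bp with a replicate 2 peak of 1649 bp. Srsf2 carried chr11:116852218-116853753, of 1536 bp with a replicate 2 peak of 1183 bp, and Hnrnpd chr5:99978096-99979471, of 1376 bp with one of 1349 bp. Hnrnpdl and Hnrnpd lie next to Enoph1 and 4930524J08Rik, whose ends are in the same intervals, so each peak belongs to both genes. The summit of the Srsf2 peak lay 714 bp from an end of Mfsd11 and 750 bp from one of Srsf2. The remaining genes were Hnrnpll, Hnrnpa0, Hnrnpa2b1, Hnrnph3, Srsf6, Srsf9, Hnrnpr, Hnrnpul2 and Srsf7. Of these, the Hnrnpll and Hnrnph3 peaks also held an end of a neighbour, 4933407O12Rik and Pbld2. Whether the others share their peaks is not reported here.

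Of 83 genes for chromatin modifiers and remodellers, 25 had a broad peak (30.1%, interval 21.3 to 40.7), 16 did in replicate 2 alone, and 71 had any reproducible peak. Besides Nsd1 they included Ctcf, the architectural factor that holds chromatin loops, with chr8:105636030-105637571 of 1542 bp, a replicate 2 peak of 1464 bp and pileups of 28 and 22. Kdm7a, a histone demethylase, carried chr6:39205616-39207347 of 1732 bp, while its longest replicate 2 peak had 779 bp. Kat2b, an acetyltransferase, carried chr17:53566886-53568434 of 1549 bp, and its replicate 2 peak had 635 bp. The 25 genes included several parts of the Polycomb complexes, which keep genes silent (Ezh2, Suz12, Eed, Rnf2 and Cbx2). They also included the CHD remodellers Chd1, Chd3, Chd4 and Chd6, and the methyltransferase family members Kmt2a, Kmt2e, Setd2, Setd5 and Nsd3. The others were Ep300, Kdm5b, Kdm3a, Tet3, Sirt1, Smarcc2 and Hdac2.

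The share of LGE regulators rested on few genes, and its interval includes the background. Of 39 LGE and striatal regulators, 5 had a broad peak (12.8%, interval 5.60 to 26.7), 3 did in replicate 2 alone and 24 had any reproducible peak. Tcf12, a bHLH partner of proneural factors, carried chr9:72110945-72112157 of 1213 bp, with a replicate 2 peak of 1317 bp and fold enrichments of 9.55 in replicate 1 and 7.2 in replicate 2. Pbx3, a TALE partner of MEIS proteins, carried chr2:34371771-34372948 of 1178 bp, with a replicate 2 peak of 1756 bp. They also included Ikzf1, a zinc finger factor of later-born striatal neurons, and Tshz1, which shares its peak with Zadh2. The Ikzf1 peak, of 1156 bp, had a replicate 2 peak of 1030 bp. Tcf12, Pbx3 and Ikzf1 were thus broad in both libraries.

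Around Meis2 itself and 6 other set genes there was none. No broad peak lay within 50 kb of Meis2, Dlx1, Dlx2, Dlx5, Dlx6, Six3 or Zfp503, homeobox and zinc finger regulators of the striatal lineage. The share of all genes with a broad peak within 50 kb was not computed, so this absence has no background to be read against. At gene ends only 6.96% of all protein-coding genes had one, and the genes of each Dlx pair are neighbours with overlapping windows. The longest reproducible peak in those windows was 291 bp at Meis2, 824 bp at Dlx1 and Dlx2, 774 bp at Dlx5 and Dlx6, 900 bp at Six3 and 581 bp at Zfp503. At Six3 and the Dlx pairs the peaks therefore came close to the minimum, and at Meis2 they did not.

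For striatal effectors and progenitor genes, too, the lists were short and the intervals of their shares include the background. Of 27 genes for effectors of striatal projection neurons, 4 had a broad peak (14.8%, interval 5.92 to 32.5), 1 in replicate 2 alone and 18 had any reproducible peak. Adcy5, the main striatal adenylyl cyclase, carried chr16:35154495-35156395 of 1901 bp over the start printed above, with replicate 2 peaks of at most 652 bp. Ptprm, a receptor phosphatase, carried chr17:67353153-67354969 of 1817 bp (at most 750 bp in replicate 2), Rasd2, a small GTPase of the striatum, chr8:75212771-75214089 of 1319 bp (1226 bp), and Adora2a, an adenosine receptor of indirect-pathway neurons, chr10:75316655-75317780 of 1126 bp (at most 353 bp). Of 23 progenitor and radial glia genes, 3 had a broad peak (13.0%, interval 4.54 to 32.1) and 0 did in replicate 2 alone: Vim, an intermediate filament gene, Fgfr1, a growth factor receptor gene, and Hes5, a Notch effector. Hes5 carried chr4:154960548-154961625 of 1078 bp with fold enrichments of 3.81 and 4.25, and Numb, a Notch inhibitor, carried chr12:83921115-83922177 of 1063 bp with 10.3 and 8.53. These were the 2 of 23 Notch pathway genes with a broad peak, 0 had one in replicate 2 alone, and 17 had any reproducible peak.

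Regulators of the neighbouring dorsal telencephalon also carried some. Of 17 genes of dorsal cortical excitatory neurons, 5 had a broad peak (29.4%, interval 13.3 to 53.1), 1 in replicate 2 alone, and 8 had any reproducible peak. They were Cux1 (chr5:136566501-136568095, 1595 bp), Sox5 (chr6:144781569-144782888, 1320 bp), Bhlhe22 (chr3:18054483-18055795, 1313 bp), Neurog1 (chr13:56251433-56252609, 1177 bp) and Emx1 (chr6:85187424-85188467, 1044 bp). Bhlhe22 was the one with a replicate 2 peak over the minimum, of 1088 bp. Of 59 Sox and Forkhead genes, 13 had a broad peak (22.0%, interval 13.4 to 34.1), 5 in replicate 2 alone and 52 any reproducible peak, including Foxo1, a target of insulin signalling, at chr3:52267702-52269550 (1849 bp and 1059 bp). Sox5 counts in both lists. Of 18 MGE and interneuron genes 2 had one, among them Reln, which encodes a secreted guidance protein (1 in replicate 2 alone), and of 24 general neuronal genes 4, namely Elavl3, Nefm, Ina and Stmn1 (2 in replicate 2 alone). Flt1, a receptor of vessels, was the 1 of 15 genes for vessels and microglia (0 in replicate 2 alone), and 0 of 19 genes for liver, muscle and pancreas had one, which allows a share of up to 15.8%.

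Signalling and housekeeping lists ranged from 22.7% to 2.38%, and the differences between them were not tested. Immediate early genes, which neurons switch on within minutes of a stimulus, had a broad peak at 5 of 22 (22.7%, interval 10.1 to 43.4; 1 in replicate 2 alone): Klf2, Btg1, Egr1, Ier5 and Klf4. Potassium channels had 14 of 92 (15.2%; 6 in replicate 2 alone), Rab GTPases 8 of 55 (14.5%; 2), ubiquitin enzymes 12 of 85 (14.1%; 8), heat shock and DNAJ genes 10 of 75 (13.3%; 5), translation initiation factors 7 of 53 (13.2%; 3) and cell cycle genes 5 of 44 (11.4%; 1). The intervals of the initiation factors (6.55 to 24.8) and cell cycle genes (4.95 to 24.0) include the background of 6.96%. The heat shock list was drawn by symbol and counts Hspg2, which encodes no chaperone. It also counts Hspd1 and Hspe1 from 1 shared peak, and its interval (7.41 to 22.8) begins only just above the background. Kcnma1, the large-conductance calcium-activated channel, carried the longest of the potassium channel peaks, chr14:24003537-24005117 of 1581 bp, with a replicate 2 peak of 1189 bp. Subunits of large complexes had lower shares, whose intervals also include the background. These were 2 of 80 cytosolic ribosomal proteins (2.50%, interval 0.688 to 8.66), 3 of 78 mitochondrial ribosomal proteins (3.85%, 1.32 to 10.7), 3 of 97 respiratory chain subunits (3.09%, 1.06 to 8.70) and 1 of 42 proteasome subunits (2.38%, 0.422 to 12.3). In replicate 2 alone the counts were 1, 2, 1 and 1, and any reproducible peak was present at 59, 55, 68 and 31 of them. Each of these genes with a broad peak had the end of another protein-coding gene within 1 kb of the same summit. The neighbours were Rdh10 at Rpl7, Nkiras1 at Rpl15, Tmem63b at Mrpl14, Hira at Mrpl40 and Rab6a at Mrpl48. They were Lrrc41 at Uqcrh, Tssk6 at Ndufa13, Emc8 and Gm27021 at Cox4i1, and Ss18l1 at Psma7.

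Large gene families lay near or below the background. Zfp genes, mostly DNA-binding repressors, had 22 of 388 (5.67%), solute carriers 18 of 362 (4.97%), Hox genes 2 of 39 (5.13%, Hoxd1 and Hoxd9), DEAD and DEAH box helicases 3 of 51 (5.88%) and clustered protocadherins 1 of 57 (Pcdhac2). Replicate 2 alone gave 8, 9, 0, 1 and 0 of them. Olfactory receptors had 0 of 1104, which allows a share of up to 0.272%, vomeronasal receptors 0 of 352 (up to 0.852%) and keratins with their associated proteins 0 of 112 (up to 2.68%). Replicate 2 alone gave 0, 0 and 1 gene. Those 3 families had any reproducible peak at 24, 5 and 52 genes. Among genes without a protein, long noncoding RNA genes had a broad peak at 269 of 12408 (2.17%), and of 18 hosts of small nucleolar RNAs only Snhg18 had one, in the interval that also covers a start of Sema5a (0 in replicate 2 alone). Transfer RNA genes had a broad peak at 12 of 391 (3.07%), and these 12 lay at 5 peaks. Of those, 3 followed each other in a tandem cluster of tRNA genes for glutamate, glycine and aspartate on chromosome 1, at chr1:171063866-171065282, chr1:171072307-171073543 and chr1:171079949-171081157. Their pileups of 56, 68 and 69 in replicate 1 and 50, 58 and 59 in replicate 2 were far above the medians at gene ends, and reads from such repeated copies cannot be placed with certainty. Small nucleolar and small nuclear RNA genes had 0 of 1286 (up to 0.233%) and 0 of 931 (up to 0.322%).

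Across promoters, the CpG count moved with the presence and the breadth of a peak. Promoters under a broad peak had a median of 32 CG dinucleotides in 300 bases (n = 1378), against 25 under a shorter peak (n = 7105) and 5 under no reproducible peak (n = 11579). The GC content followed, with medians of 70.7%, 64.7% and 50.3%. The share of promoters under a broad peak was 24.8% of 3232 with 30 or more CG, 13.4% with 25 to 29, 7.16% with 20 to 24, 4.67% with 15 to 19, and 0 of 5526 with 0 to 4, which allows up to 0.0543%. The gene lists differed in the same measure, with a median of 32 for chromatin regulators and for splicing factors, 22 for cytosolic ribosomal proteins, 19 for proteasome subunits and 1 for olfactory receptors. The part of CpG count in the list shares was not tested.

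**Figure D5:**
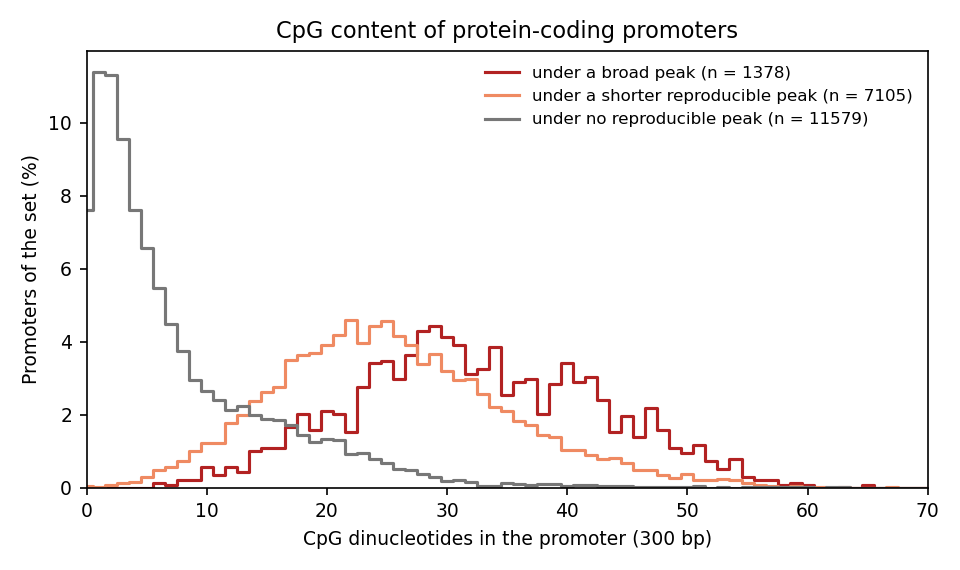
Distribution of CG dinucleotides per protein-coding promoter of 300 bases (horizontal axis, count; vertical axis, percent of the set), for promoters under a broad peak, under a shorter reproducible peak and under none. Medians are 32, 25 and 5.

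Short sequence words in the same promoters differed between the 3 sets, and the MEIS core was less frequent under broad peaks than under none. The core TGACAG, searched on both strands, was in 12.4% of promoters under a broad peak (interval 10.8 to 14.3), 15.02% under a shorter peak, 21.2% under none and 18.4% of all 20062. Of the 6 promoters printed above only that of Ptma holds one, 26 bases before the start. The PBX-MEIS word TGATTGAC was rare everywhere, at 1.23%, 0.662% and 0.820% in the 3 sets and 0.793% of all. The homeodomain core TAATTA was in 0.218%, 1.45% and 6.84% (4.48% of all), and the GC box GGGCGG in 85.0%, 76.9% and 24.2% (47.0% of all). The ETS word CCGGAAG was in 10.6% under broad peaks, against 18.96% under shorter peaks, 7.69% under none and 11.9% of all. The sets differ in base composition, the windows hold 300 bases of a longer peak, and a match or its absence shows nothing about what is bound.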

How the data were processed

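CUT&Tag peak lists of 2 MEIS2 libraries and 1 no-antibody library were analysed, grouped by the labels. Per the file headers, the authors called peaks in each library alone with MACS 2.2.7.1, without a control file, at a q cutoff of 0.05, keeping at most 1 tag per position and not using read pairs. Bowtie2 2.3.4, Trimmomatic, Picard, mm10 and MACS2 2.1.4 are listed per the submitters' processing notes, so the MACS version differs from the headers, and the order of steps is not stated. The deposited pileup is the signal at the summit, unscaled for depth. The deposited fold enrichment is the ratio of pileup to the local expectation, and the deposited −log10 p and −log10 q values are MACS's, used only in 1 alternative. The libraries differ in depth, which was not corrected for.

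Overlap meant at least 1 bp, and a gene end a summit within 1 kb. Gene positions came from RefSeq GRCm38.p6 (49993 placed genes); starts, strands and promoters from its promoter table, which as used here holds no chromosome 18 entries and 20062 protein-coding starts. The gene table has no exons, so exonic and intronic summits were not separated. The 32 lists share some genes, and some were drawn by symbol. Genes were named by a rule: 7 set genes, the extremes of length, fold enrichment, pileup, replicate 2 peaks and gene ends, and up to 4 longest per list (all, for lists with 5 or fewer); some genes that the rule names are not reported here. Members, lists and alternatives were chosen with earlier results of these data known. The lookup was checked on simulated intervals. Python 3.11.15, pandas 2.3.3 and scipy 1.17.1 were used. The alternatives were 11 planned and 1 added.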

Additional observations from a re-analysis of the deposited data

Results flagged for a closer look

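The rule for broad peaks left out the sex chromosomes, yet the same conditions held there. On chromosome X, 113 replicate 1 peaks were 1000 bp or longer, met a replicate 2 peak and met no no-antibody peak, while the no-antibody library had 5 peaks of that length; 42 of the 113 were at a protein-coding gene end, and their median pileup was 25. On chromosome Y, 4 peaks met the conditions and the no-antibody library had 0 of that length. Of these, 1 was at a protein-coding gene end, and their median pileup was 110.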

How the results depend on the processing

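None of these values comes from a test. Of 105 alternative values, 60 stayed within the interval of the reported value, or within 1.5 times it for counts, and 45 moved. Some of the 60 could not move. Settings that change only how place is defined keep the same peaks. They leave peak number, the share with a wide replicate 2 peak, fold, the share covering a start and CpG count as they were. Leaving out replicate 2 changed the set little, to 2182 peaks. The count of 60 is therefore no measure of stability. Values follow the order of peak number, share at any gene end, share at a protein-coding gene end, protein-coding genes, share between genes, share with a replicate 2 peak of 1000 bp or more, median of the lower fold enrichment, share covering a start, and median CpG count, with those that stayed left out. A minimum of 800 bp gave 4982 peaks, 3224 genes, 21.7% with a wide replicate 2 peak and a fold of 7.02. A minimum of 1500 bp gave 246 peaks, 52.8% and 50% at gene ends, 142 genes, 63.8% with a wide replicate 2 peak, a fold of 6.08 and a CpG count of 33. With 50% reciprocal overlap the wide share was 54%, the fold 6.93 and the CpG count 33, and a −log10 q minimum of 5 gave a fold of 6.86. A gene end of 500 bp gave 45.2% and 41.1% at ends, one of 2500 bp 73.4% and 68.6%, and counting a gene end only where the interval itself overlaps it, with no 1 kb window, 53.7% and 49.2%; with place taken from the interval, 12.1% lay between genes. Counting only peaks wide in both replicates gave 969 peaks, 54.8% and 51.1% at ends, 567 genes, 29.2% between genes, a fold of 7.08, 48.7% covering a start and a CpG count of 34. Without replicate 1 and without replicate 2 the ranges were 1153 to 2182 peaks, 54.1% to 62.7% and 50% to 58.3% at ends, 660 to 1443 genes, 23% to 27.8% between genes, folds of 7.3 to 7.43, 46.7% to 54.2% covering a start and CpG counts of 32 to 34. The lower or higher value in each range that moved is that without replicate 1, apart from the fold of 7.43, which is replicate 1 alone. All 1153 wide replicate 2 peaks clear of the control met a replicate 1 peak. Restricting replicate 1 pileup to under 50, an alternative added after seeing the data, gave 69.6% and 64.8% at ends, 18.1% between genes, 39.1% with a wide replicate 2 peak, a fold of 6.62 and 60.1% covering a start. Changes in peak and gene number follow from the changed minimum or definition; the cause of the others was not tested. The share with a wide replicate 2 peak has no value where a replicate is left out or where it is itself the condition. No paired analysis was possible because the MEIS2 and no-antibody groups share fewer than 2 replicate numbers and no test was run. After repeated positions were dropped, replicate 2 had fewer tags and fewer wide peaks than replicate 1, although it had more before (79760948 against 74259592), and the no-antibody library had the fewest of both; the part of depth in breadth was not tested.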

Other observations

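Broad peaks were spread over all chromosomes studied, from 4.28% of the reproducible peaks on chromosome 6 to 6.54% on chromosome 19. The median gap between neighbouring broad peaks was 585 kb, and 16 of 2158 gaps (0.741%) were under 10 kb. These gaps were not compared with those of as many intervals placed at random. Annotated microRNA hairpins lay whole inside 15 of the 2177 broad peaks. A longer interval holds a hairpin more often by its length alone, and the same count was not made for shorter peaks. Of 1136 microRNA genes, 18 had a broad peak at an end (1.58%), against 6.96% of protein-coding genes. Mir760 lay in chr3:122292999-122294234, of 1236 bp with pileups of 22 in replicate 1 and 18 in replicate 2, which has no protein-coding gene end within 1 kb and also meets a tRNA gene. Mir7045 lay in the peak at Chd4, and Mir8105 in the peak at Smarcc2, both genes of chromatin remodellers.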
